A study of Mus musculus with 12 samples.

Results

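The unfolded protein response and the integrated stress response were examined through 37 genes, taken as the rows of the deposited expression table that carry the names of the set. All 37 were in the table, out of 23406 genes, and all 37 passed the filter of a mean of at least 0.5 CPM (read counts scaled to library size) that left 13961 genes for testing. By role, 14 encode chaperones and folding enzymes of the endoplasmic reticulum (ER), 4 act in ER-associated degradation, 6 are stress sensors or transcription factors and 13 are targets of the transcription factor ATF4. The samples were passage 2 mammospheres, spheres that mammary cells form in suspension, cultured from C57BL/6J animals, either wild type (WT) or carrying the Shc1p66 knock-out (KO, p66-/-), which removes p66Shc, an adaptor protein linked to oxidative stress and made from the Shc1 gene. The 4 groups were WT and KO from mice of 2 months (called young here) and of 12 months (called aged), with 3 RNA sequencing libraries each and no other treatment named in the labels. The labels name no promoter, Cre or tissue that would limit the knock-out, and both KO groups carry it. The series speaks of 3 young and 3 aged mice, and the labels do not tie each library to an animal, so p-values measure the spread between these libraries.

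When unfolded proteins gather in the ER, the sensor kinase IRE1 (gene Ern1), the kinase PERK (Eif2ak3) and the membrane-bound factor ATF6 signal to the nucleus. IRE1 splices the messenger of XBP1, and XBP1 and ATF6 switch on chaperones and degradation factors. PERK, like the kinases that sense amino acid shortage, haem loss and double-stranded RNA, phosphorylates the initiation factor eIF2alpha. That slows translation in general and raises that of ATF4, whose targets range from the regulators CHOP (Ddit3) and TRIB3 to enzymes and transporters of amino acid supply. Secretory epithelia such as the mammary gland lean on the chaperone arm, while the ATF4 arm also responds to stresses that do not start in the ER. Both XBP1 splicing and ATF4 translation are controlled after transcription, so gene-level counts do not measure either activity.

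Promoter sequences of 6 members are shown because they carry the short elements through which each arm is known to act. From RefSeq on GRCm38.p6, 33 of the 37 members had a promoter window of 300 bases, 250 before and 50 after the start of transcription; Manf, Hyou1, Atf6 and Slc7a5 are named only. Searched on both strands were the ER stress response element, CCAAT and CCACG with 9 bases between them, bound by ATF6 with a CCAAT factor; the ATF4 composite element TTNCATCA; and the element TGACGTGG of XBP1 and ATF6. The members shown are those with a match and the largest differences between groups. Capitals mark the matched letters, read 5′ to 3′ along the gene's strand (Asns matched on the opposite strand). The windows are chr7:126625421-126625720 (minus strand) for Nupr1, chr2:119350992-119351291 (plus) for Chac1, chr19:6046326-6046625 (plus) for Syvn1, chr2:152344011-152344310 (minus) for Trib3, chr6:7693160-7693459 (minus) for Asns and chr2:34771840-34772139 (plus) for Hspa5.
Hspa5: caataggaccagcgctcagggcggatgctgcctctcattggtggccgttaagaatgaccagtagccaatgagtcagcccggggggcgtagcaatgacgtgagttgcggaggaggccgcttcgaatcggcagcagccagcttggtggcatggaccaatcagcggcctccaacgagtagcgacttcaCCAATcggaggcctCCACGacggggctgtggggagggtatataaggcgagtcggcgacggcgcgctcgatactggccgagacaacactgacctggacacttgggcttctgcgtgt
Syvn1: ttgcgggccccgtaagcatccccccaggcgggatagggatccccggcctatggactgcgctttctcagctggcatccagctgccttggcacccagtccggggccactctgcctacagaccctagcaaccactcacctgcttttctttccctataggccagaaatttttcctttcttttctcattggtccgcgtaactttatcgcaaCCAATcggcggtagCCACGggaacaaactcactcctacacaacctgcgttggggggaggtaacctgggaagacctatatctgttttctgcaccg
Asns: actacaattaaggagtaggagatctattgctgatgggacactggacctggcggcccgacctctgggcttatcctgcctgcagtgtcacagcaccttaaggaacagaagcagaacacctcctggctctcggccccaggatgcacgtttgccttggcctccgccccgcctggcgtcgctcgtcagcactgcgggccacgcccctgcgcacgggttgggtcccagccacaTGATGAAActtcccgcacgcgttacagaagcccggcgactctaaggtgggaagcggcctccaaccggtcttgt
Chac1: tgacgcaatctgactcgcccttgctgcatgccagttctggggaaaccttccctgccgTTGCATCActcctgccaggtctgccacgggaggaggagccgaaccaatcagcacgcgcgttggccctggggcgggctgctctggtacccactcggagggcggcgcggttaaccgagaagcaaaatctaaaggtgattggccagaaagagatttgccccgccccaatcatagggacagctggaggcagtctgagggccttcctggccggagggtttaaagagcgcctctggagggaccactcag
Nupr1: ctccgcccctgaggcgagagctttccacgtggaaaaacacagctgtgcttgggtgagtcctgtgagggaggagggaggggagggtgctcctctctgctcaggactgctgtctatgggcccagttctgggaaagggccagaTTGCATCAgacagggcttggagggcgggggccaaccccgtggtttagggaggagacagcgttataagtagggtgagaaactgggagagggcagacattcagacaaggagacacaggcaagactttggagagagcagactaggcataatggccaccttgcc
Trib3: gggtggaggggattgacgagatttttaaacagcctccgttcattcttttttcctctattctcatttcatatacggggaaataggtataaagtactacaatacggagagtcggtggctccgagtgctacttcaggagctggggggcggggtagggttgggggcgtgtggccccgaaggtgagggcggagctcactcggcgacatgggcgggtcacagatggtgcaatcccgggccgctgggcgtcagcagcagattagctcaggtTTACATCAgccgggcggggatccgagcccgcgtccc

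The ER stress response element was found in 7 of the 12 ER chaperone members with a window (58.3%), namely Hspa5, Calr, Hsp90b1, Canx, Pdia6, Dnajc3 and Creld2, and in Syvn1 of the degradation group. Over all 32851 windows it was in 39 (0.119%). The ATF4 composite element was found in 5 of the 12 ATF4 targets with a window (41.7%), namely Nupr1, Trib3, Chac1, Asns and Pck2, and in Herpud1, against 3.97% of all windows. TGACGTGG was in 0 members and in 0.676% of all windows. No member held matches to more than 1 of the 3 elements, so none overlapped. In Hspa5 the element lay 65 to 47 bases upstream of the start, in Syvn1 44 to 26, in Nupr1 110 to 103, in Chac1 193 to 186 and in Asns 23 to 16, while in Trib3 it lay 15 to 22 bases downstream. Matches describe letters in these windows only.

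Libraries held 31845169 to 109079737 reads in genes, and the members drew 268 to 180304 reads per library. Counting error weighs most on the members with the fewest reads, such as Syvn1 (268 to 1553 reads) and Chac1 (369 to 1645). Replicate 1 of young WT stood apart from its replicates by a chi-square per degree of freedom of 47.8 to 71.5, and replicate 3 of aged KO from its own by 36.5 to 37.9. The other replicate pairs were at 6.04 to 16.1. Replicate 3 of aged KO was also the deepest library, at 109079737 reads. Such a chi-square grows with depth, so its values do not compare on equal terms. Shc1, the targeted gene, had a mean of 296 CPM in young WT, 211 in aged WT, 208 in young KO and 170 in aged KO; since all Shc1 isoforms are summed it checks the labels only in part. The epithelial adhesion gene Epcam was present in every library, at 50.3 to 67.4 CPM outside aged WT and 404 to 410 CPM in it. The 15 luminal markers summed to 404 to 475 CPM in young WT, 515 to 590 in young KO, 634 to 675 in aged KO and 4337 to 4442 in aged WT, and 9 fibroblast markers to 7162 to 11788 CPM over all 12 libraries. In such bulk RNA, fewer cells of a type and less RNA per cell cannot be told apart.

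Values below are deposited CPM per library in the order of replicates 1 to 3, and differences are on the log2(CPM + 0.5) scale with the standard error (SE) from limma, where 1 is a doubling. A gene was called at a Benjamini-Hochberg adjusted p under 0.05 over all 13961 genes. With age in WT, 7 of the 37 members were higher and 19 lower, against a background of 22.3% and 35.6% of all genes. With age in KO, 14 were higher and 7 lower (background 32.9% and 34.2%). KO exceeded WT at 12 months in 24 members and was below it in 8 (background 31.3% and 38.9%). At 2 months the genotypes differed in 3 members, 1 higher and 2 lower in KO (background 1.86% and 14.2%). The interaction, the age difference in KO minus that in WT, was called above 0 in 24 and below 0 in 9 (background 31.4% and 26.2%). The median difference of the members was -0.17, 0.04, 0.36, 0.02 and 0.35 in these comparisons in the order given, and that of all genes -0.08, -0.02, -0.07, -0.09 and 0.02. The age comparison in WT, the genotype comparison at 12 months and the interaction all use the aged WT libraries and are not independent of one another. Without replicate 1 of young WT, 6 members rose and 19 fell with age in WT, and the interaction was called above 0 in 25 and below 0 in 7. Without replicate 3 of aged KO, 14 rose and 7 fell with age in KO, and 24 were higher and 9 lower in KO at 12 months.

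**Figure D1:**
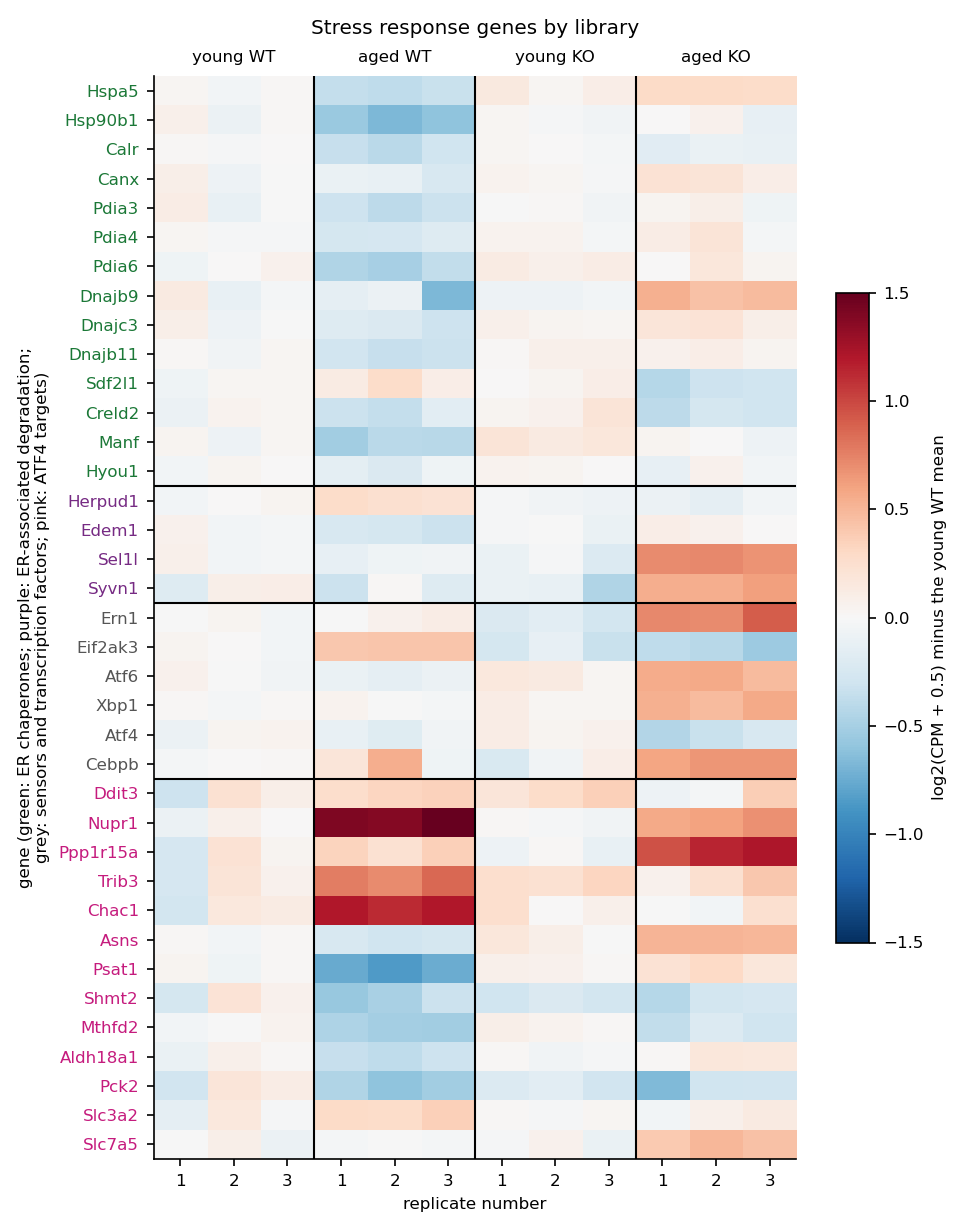
Log2(CPM + 0.5) of the 37 genes (rows, grouped by role) in the 12 libraries (columns, grouped by genotype and age), each gene relative to its mean in young WT; red is higher and blue lower, with colours ending at 1.5. Apart from Sdf2l1, which is higher there, the ER chaperone rows are blue in aged WT, where Nupr1, Chac1 and Trib3 are red, and Ern1, Sel1l and Ppp1r15a are red in aged KO.

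The deposited columns do not share a common scale. When library scaling was recomputed over all 12 libraries by trimmed mean of M-values (TMM), young WT values moved by -0.06 and the other groups by 0.004 to 0.03 on the log2 scale. The genotype comparison at 2 months is the one most touched: all genes split into 259 higher and 1986 lower as deposited, and into 426 and 1028 after rescaling, while the members moved from 1 higher and 2 lower to 5 higher and 0 lower. With age in WT, all genes split into 3120 higher and 4971 lower as deposited and into 3898 and 3766 in edgeR on the recovered reads, where the members had 10 higher and 15 lower.

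ER chaperones and folding enzymes were lower in aged WT mammospheres and were not lowered as a group in aged KO. With age in WT, 12 of the 14 fell, with a median of -0.31 and a range of -0.61 to 0.17. In KO, 3 rose and 4 fell, with a median of 0.0007. At 12 months 11 of the 14 were higher in KO and 1 lower (median 0.37), and the interaction was called above 0 in 11 and below 0 in 1. Over all genes, the shares called higher and lower were 22.3% and 35.6% with age in WT and 32.9% and 34.2% in KO. The shares were 31.3% and 38.9% for genotype at 12 months and 31.4% and 26.2% for the interaction. Summed over the 14, the level was 8760 to 9399 CPM in young WT, 7029 to 7258 in aged WT, 9135 to 9473 in young KO and 9221 to 9827 in aged KO, so that the aged WT libraries lay below all others. With scaling over all 12 libraries 10 fell with age in WT and 1 rose, and with edgeR 8 fell and 1 rose.

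Hspa5 (chromosome 2, 34772089 to 34776529, plus strand) encodes BiP, the main ER Hsp70, which also holds the 3 sensors inactive. Its level was 1475, 1400 and 1459 CPM in young WT, 1126, 1107 and 1141 in aged WT, 1592, 1472 and 1542 in young KO and 1763, 1759 and 1744 in aged KO. The aged WT libraries lay below and the aged KO libraries above every other library. In aged WT Hspa5 was lower than in young WT by 0.36 ± 0.05 (adjusted p = 2.52e-05), while it rose by 0.19 ± 0.05 (adjusted p = 0.00315) in KO, with an interaction of 0.55 ± 0.07 (adjusted p = 1.36e-05). KO exceeded WT by 0.64 at 12 months (adjusted p = 6.62e-08).

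Hsp90b1 (chromosome 10, 86690840 to 86705444, minus strand) encodes GRP94, the ER Hsp90. Its level was 1676, 1496 and 1610 CPM in young WT, 1079, 999 and 1050 in aged WT, 1628, 1575 and 1540 in young KO and 1604, 1662 and 1458 in aged KO. Only aged WT stood off, with no overlap with any other group. The age difference was -0.61 ± 0.06 in WT (adjusted p = 1.92e-06) and -0.01 ± 0.06 in KO (adjusted p = 0.926), and the interaction was 0.60 ± 0.09 (adjusted p = 6.77e-05).

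Calr and Canx encode the lectin chaperones of glycoproteins. Calr (calreticulin) fell by 0.35 (adjusted p = 3.62e-05) in WT and by 0.13 (adjusted p = 0.0349) in KO, and its partner Canx (calnexin) by 0.15 (adjusted p = 0.0482) in WT, with a rise of 0.15 in KO (adjusted p = 0.0427). The Canx values sat at the threshold, and its WT call was lost in 16 of 23 alternative settings, the Calr call in KO in 11. The interactions of Calr (0.22, adjusted p = 0.0141) and Canx (0.30, adjusted p = 0.00898) were both lost in edgeR (adjusted p = 0.13 for Calr), that of Calr also with both rescalings over all 12 libraries and that of Canx with the length trend described below removed. Calr was the most abundant member per length of exon, with 757 CPM per kb over the 12 libraries, ahead of Hsp90b1 with 513, Hspa5 with 390 and Canx with 349. Among the disulfide isomerases, Pdia3, Pdia4 and Pdia6 fell in WT by 0.34, 0.24 and 0.44 (adjusted p = 0.000306, 0.00256 and 1.85e-05). In KO the same 3 isomerases differed by 0.03, 0.07 and -0.03 (adjusted p = 0.639, 0.314 and 0.607).

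The DnaJ co-chaperones that assist BiP gave a similar order of groups. Dnajb11 fell in WT from 197, 188 and 199 CPM to 159, 154 and 156, against 197, 205 and 205 and then 203, 208 and 201 in KO (interaction 0.33 ± 0.06, adjusted p = 0.000502). Dnajc3, which encodes p58IPK, an inhibitor of PERK, fell by 0.24 (adjusted p = 0.00206) in WT and differed by 0.11 (adjusted p = 0.103) in KO. Dnajb9, an inhibitor of IRE1 and a marker of its activity, rose in KO from 39.2, 39.1 and 40.1 CPM to 60.1, 56.2 and 57.7 (0.55 ± 0.12, adjusted p = 0.00136). In WT it was 45.4, 38.3 and 40.6 CPM at 2 months and 37.7, 39 and 25.8 at 12 months (-0.30, adjusted p = 0.0519), where replicate 3 alone was low. Dnajb9 had the largest interaction of the group, 0.84 ± 0.17 (adjusted p = 0.000944).

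Not every ER folding gene followed. Manf, a secreted ER protein that binds BiP, fell in both genotypes, by 0.45 (adjusted p = 7.39e-06) in WT and 0.18 in KO (adjusted p = 0.00946). Creld2, an ER-resident and secreted stress protein, also fell in both, by 0.28 (adjusted p = 0.00384) and 0.42 (adjusted p = 0.000147), and its genotype difference at 12 months did not pass (-0.04, adjusted p = 0.619). Sdf2l1, a cofactor of the BiP cycle, was 18.9, 20.3 and 20.4 CPM in young WT, 21.7, 24.1 and 21.4 in aged WT, 20, 20.4 and 21.3 in young KO and 14.7, 15.9 and 16.1 in aged KO. It fell in KO by 0.40 (adjusted p = 0.000221), the opposite order of the aged groups to Hspa5, and its interaction was -0.56 ± 0.10 (adjusted p = 0.000281). Hyou1, an ER nucleotide exchange factor, fell by 0.14 (adjusted p = 0.0427) in WT, a call lost in 14 of 23 settings, and was called in no other comparison.

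Sdf2l1 and Creld2 have the shortest exons of the group, 1108 and 1366 bases, and length went with the difference in KO over the whole table. In the age comparison in KO the shortest of 4 equal classes of genes by exon length had a median difference of -0.23 and the longest of 0.22 (Spearman 0.27 over 13152 genes), against -0.09 and -0.06 in WT (Spearman 0.03). In the genotype comparison at 12 months the corresponding medians were -0.22 and 0.13 (Spearman 0.20). Over the 37 members the Spearman correlation with exon length was 0.37 for age in KO, -0.20 for age in WT and 0.44 for genotype at 12 months, given as a description since genes are not replicates. Relative to the gene means, the longest class exceeded the shortest by 0.37, 0.35 and 0.16 in the aged KO libraries and by -0.21 to 0.03 in the other 9. With this trend removed within each library, a fit chosen after seeing the data, Sdf2l1 lost its call in KO (adjusted p = 0.218), as did Calr and Manf, while the Creld2 difference in KO shrank from -0.42 to -0.17 (adjusted p = 0.0322), and 1 ER chaperone gene fell with age in KO in place of 4. In the same fit 9 ER chaperone genes fell with age in WT in place of 12, with the calls of Canx, Hyou1 and Pdia4 lost (adjusted p = 0.488, 0.491 and 0.0955), and the interaction of Dnajc3 was not called (adjusted p = 0.0565). The part of RNA quality or of other length-dependent steps in this trend was not tested.

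**Figure D2:**
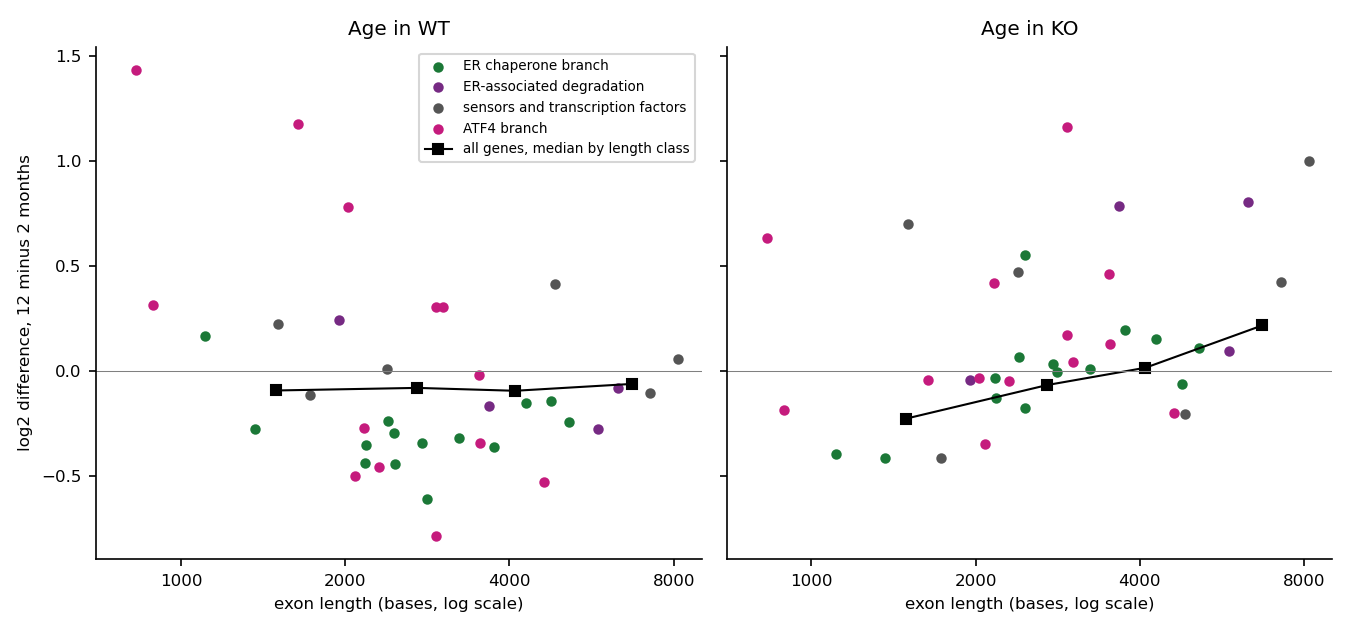
Log2 difference between 12 and 2 months (vertical axis) against exon length in bases (log scale) for the 37 genes, in WT (left) and KO (right), coloured by role; black squares join the medians of all genes in 4 equal classes of exon length. In KO the medians climb from -0.23 to 0.22 and in WT they stay between -0.09 and -0.06.

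ER-associated degradation returns misfolded proteins to the cytosol for destruction, and of its 4 members Sel1l and Syvn1, the core of a ubiquitin ligase complex, rose with age in KO. Of the 4 genes 1 rose and 1 fell in WT, 2 rose and 0 fell in KO, and 3 were higher and 1 lower in KO at 12 months. Of all genes 22.3% rose and 35.6% fell in WT, and 32.9% rose and 34.2% fell in KO. At 12 months 31.3% of all genes were higher and 38.9% lower in KO. Sel1l (chromosome 12, 91806042 to 91849157, minus strand), the adaptor of the ligase HRD1, was 292, 268 and 271 CPM in young WT, 254, 265 and 266 in aged WT, 259, 274 and 240 in young KO and 453, 455 and 441 in aged KO. All 3 aged KO libraries lay far above the other 9, among which young KO overlapped both WT ages and aged WT lay just below young WT. Sel1l rose by 0.80 ± 0.06 (adjusted p = 3.62e-08) in KO and differed by -0.08 (adjusted p = 0.221) in WT, with an interaction of 0.89 ± 0.08 (adjusted p = 5.74e-07). Its exons are long, at 6318 bases, and with the length trend removed its rise in KO was 0.66 and its interaction 0.66.

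Syvn1, which encodes HRD1 itself and carries the ER stress response element shown above, was the member with the lowest level per kb of exon (2.79 CPM). It was 8.36, 10.2 and 10.3 CPM in young WT, 7.54, 9.69 and 8.33 in aged WT, 8.92, 8.87 and 6.89 in young KO and 14.2, 14.2 and 15 in aged KO. The order was that of Sel1l, with aged KO above the rest. Its rise in KO was 0.79 ± 0.12 (adjusted p = 6.03e-05) and its interaction 0.95 ± 0.17 (adjusted p = 0.000295). Its gene span overlaps that of Mrpl49 on the opposite strand over 90 bases, and without a stated strand setting reads there cannot be assigned.

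Edem1, a lectin that takes glycoproteins out of folding, fell in WT by 0.28 (adjusted p = 0.000292) and differed by 0.10 (adjusted p = 0.103) in KO. With the length trend removed, its interaction was 0.17 (adjusted p = 0.0338) in place of 0.37. Herpud1, a scaffold of the ligase complex, went the other way: 88.6, 91.6 and 93.7 CPM rose to 110, 108 and 107 in WT, against 90, 88.4 and 86.7 and then 85.7, 82.8 and 88.7 in KO. Its rise in WT was 0.24 ± 0.05 (adjusted p = 0.000521) and its interaction -0.29 (adjusted p = 0.00218). Herpud1 was the degradation gene with an ATF4 composite element in its window.

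Among the 6 sensors and transcription factors, 1 rose with age in WT, 4 rose and 2 fell in KO, and 4 were higher and 2 lower in KO at 12 months. Of all genes 22.3% rose in WT, 32.9% rose and 34.2% fell in KO, and 31.3% were higher and 38.9% lower in KO at 12 months. The sensor kinases Ern1 and Eif2ak3 went opposite ways in KO. Ern1 (chromosome 11, 106397619 to 106487796, minus strand), the gene of IRE1alpha, was 25.5, 26.3 and 24.8 CPM in young WT, 25.5, 26.7 and 27.5 in aged WT, 22, 22.8 and 21 in young KO and 42.3, 42 and 48.5 in aged KO. Aged KO stood above every other library, and the WT ages overlapped. Ern1 rose by 0.996 ± 0.07 (adjusted p = 3.08e-08) in KO, differed by 0.06 (adjusted p = 0.509) in WT and had an interaction of 0.94 ± 0.10 (adjusted p = 2.13e-06). Its exons are the longest of the 37, at 8157 bases, and with the length trend removed its interaction was 0.62.

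Eif2ak3 (chromosome 6, 70844526 to 70905240, plus strand), the gene of PERK, was 84.5, 82.3 and 79.5 CPM in young WT, 109, 110 and 109 in aged WT, 68.1, 75.5 and 64.8 in young KO and 62.8, 61.4 and 56 in aged KO. Aged WT was the highest group and aged KO the lowest, with no overlap between any of the groups. Eif2ak3 rose by 0.41 ± 0.06 (adjusted p = 7.62e-05) in WT and fell by 0.21 ± 0.06 (adjusted p = 0.0104) in KO, a fall that was not called without replicate 2 of young KO (adjusted p = 0.0582). The interaction was -0.62 ± 0.09 (adjusted p = 5.15e-05), and KO was below WT by 0.86 at 12 months (adjusted p = 4.47e-08). At 2 months KO was below WT by 0.24 for Eif2ak3 (adjusted p = 0.0185) and by 0.22 for Ern1 (adjusted p = 0.0436), and both calls were lost with scaling over all 12 libraries. The remaining member called at 2 months, Manf, was 0.17 higher in KO (adjusted p = 0.0499), a call lost in 14 of 23 settings.

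Atf6 and Xbp1, the genes of the other arms' transcription factors, rose in KO by 0.42 (adjusted p = 8.46e-06) and 0.47 (adjusted p = 9.64e-07). In WT they differed by -0.11 (adjusted p = 0.0893) and 0.01 (adjusted p = 0.907). Atf6 has long exons, and with the length trend removed its rise in KO was 0.22 (adjusted p = 0.000515) and its interaction 0.26 in place of 0.53. Xbp1 was 231, 219 and 218 CPM in young KO and 309, 299 and 318 in aged KO, against 210 to 221 in all 6 WT libraries. Atf4 itself was 474, 519 and 522 CPM in young WT, 467, 444 and 485 in aged WT, 546, 518 and 529 in young KO and 371, 401 and 426 in aged KO. It fell by 0.41 ± 0.06 (adjusted p = 5.18e-05) in KO and was not called in WT (-0.12, adjusted p = 0.118), so the Atf4 transcript was lowest in aged KO. Atf4 is short, at 1725 bases, and with the length trend removed its difference in KO was -0.22 (adjusted p = 0.000981) and it lost its lower call against WT at 12 months (adjusted p = 0.299). Cebpb, a transcription factor that pairs with ATF4 and CHOP, rose by 0.70 (adjusted p = 0.000186) in KO, while in aged WT its libraries spread from 42.7 to 65.3 CPM and it was not called (0.22, adjusted p = 0.133).

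**Figure D3:**
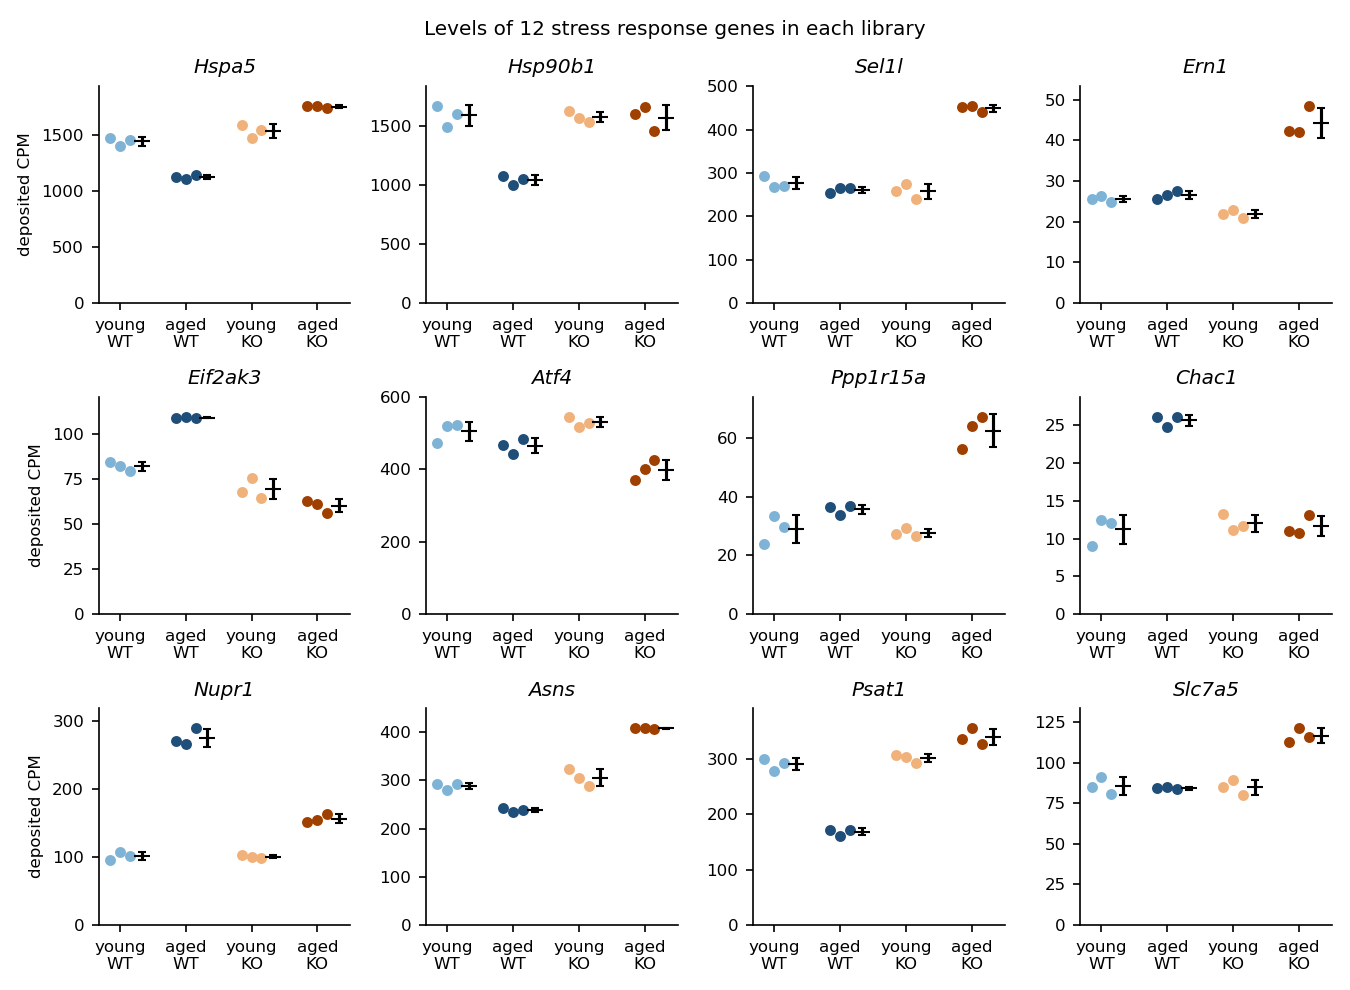
Deposited CPM (vertical axis, from 0) of 12 genes in each library of the 4 groups; points are libraries and the bars beside them mean ± SD with n = 3. Hsp90b1 and Psat1 are low in aged WT, Sel1l, Ern1 and Ppp1r15a are high in aged KO, and Chac1 and Nupr1 are highest in aged WT.

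The 13 ATF4 targets did not move as a block. With age in WT 5 rose and 6 fell, with a median of -0.02 and a range of -0.79 to 1.43. In KO 5 rose and 1 fell (median 0.04), at 12 months 6 were higher and 4 lower in KO (median 0.14), at 2 months 0 were called by limma (1 higher and 1 lower at an unadjusted p under 0.05, and 2 higher in edgeR), and the interaction was called above 0 in 6 and below 0 in 5. Over all genes, the shares called higher and lower were 22.3% and 35.6% with age in WT and 32.9% and 34.2% in KO. The shares were 31.3% and 38.9% at 12 months, 1.86% and 14.2% at 2 months and 31.4% and 26.2% for the interaction. The count of 5 rising in KO was near its share. By role, 4 of 5 regulators rose and 6 of 6 biosynthetic enzymes fell with age in WT. That grouping has 5 regulators (Ddit3, Nupr1, Ppp1r15a, Trib3, Chac1) and 6 enzymes (Asns, Psat1, Shmt2, Mthfd2, Aldh18a1, Pck2), and leaves out the transporter genes Slc3a2 and Slc7a5. It was made after the values were seen and is described without a test.

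Nupr1 (chromosome 7, 126623245 to 126625470, minus strand), a small stress-induced chromatin protein, had the largest age difference of all 37 in WT. It was 95.8, 108 and 102 CPM in young WT, 270, 266 and 290 in aged WT, 103, 100 and 98.4 in young KO and 151, 155 and 164 in aged KO. The young groups overlapped, aged KO lay above them and aged WT above all. The rise was 1.43 ± 0.06 in WT (adjusted p = 1.3e-10) and 0.63 ± 0.06 in KO (adjusted p = 4.03e-07), with an interaction of -0.80 ± 0.08 (adjusted p = 1.72e-06). Nupr1 has the shortest exons of the 37, and with the length trend removed its rise in KO was 1.002 and its difference between genotypes at 12 months -0.50 in place of -0.81.

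Chac1 (chromosome 2, 119351241 to 119354327, plus strand), which degrades glutathione, was 9.05, 12.5 and 12.1 CPM in young WT, 26.1, 24.7 and 26 in aged WT, 13.3, 11.1 and 11.7 in young KO and 11, 10.8 and 13.2 in aged KO. Aged WT held 24.7 to 26.1 CPM and the other 9 libraries overlapped. Its rise in WT was 1.17 ± 0.12 (adjusted p = 1.36e-06), its difference in KO -0.05 (adjusted p = 0.744) and its interaction -1.22 ± 0.17 (adjusted p = 3.14e-05). Trib3, a pseudokinase that restrains AKT and ATF4, followed the same order, from 22.9, 31.4 and 28.6 CPM to 46.9, 45.3 and 50.3 in WT, with 32.7, 32.2 and 34.5 and then 28.6, 32.5 and 36.3 in KO (interaction -0.81 ± 0.15, adjusted p = 0.000466).

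Ddit3, the gene of the death-associated factor CHOP, was 50.2, 72.9 and 66.2 CPM in young WT, 75.2, 77.9 and 79.5 in aged WT, 71, 75.8 and 79.8 in young KO and 58.9, 60.9 and 80.7 in aged KO. In the main fit it was called in none of the 4 comparisons between groups (age in WT 0.31, adjusted p = 0.0545), with replicate 1 low in young WT and replicate 3 high in aged KO. Its rise in WT was called in some alternative settings. These included TMM (adjusted p = 0.0234) and median-of-ratios scaling (0.0159) over all 12 libraries, edgeR (0.0157) and DESeq2 (0.00804). The interaction of -0.50 ± 0.18 (adjusted p = 0.0323) was lost in 9 of 22 settings. Its gene span overlaps that of Mars on the opposite strand over 69 bases.

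Ppp1r15a (chromosome 7, 45522916 to 45526268, minus strand), which encodes GADD34, the phosphatase subunit that ends the response by removing phosphate from eIF2alpha, had its peak in the other genotype. It was 24, 33.5 and 29.6 CPM in young WT, 36.4, 33.8 and 36.9 in aged WT, 27.3, 29.2 and 26.6 in young KO and 56.2, 64.4 and 67.4 in aged KO. Aged KO was above every other library. The rise was 1.16 ± 0.10 in KO (adjusted p = 4.36e-07) and 0.31 in WT (adjusted p = 0.022), the latter not called without replicate 1 of young WT (0.18, adjusted p = 0.0859) or without replicate 1 or 3 of aged WT. The interaction was 0.85 ± 0.15 (adjusted p = 0.000243), against negative interactions for the other 4 regulators.

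All 6 enzymes fell with age in WT, by a median of 0.48. Psat1 (chromosome 19, 15905122 to 15925059, minus strand), of serine synthesis, was 299, 278 and 294 CPM in young WT, 171, 161 and 173 in aged WT, 307, 304 and 294 in young KO and 337, 357 and 327 in aged KO. Aged WT lay far below and aged KO above the rest. It fell by 0.79 ± 0.05 (adjusted p = 1.82e-08) in WT, rose by 0.17 (adjusted p = 0.00865) in KO and had an interaction of 0.96 ± 0.07 (adjusted p = 1.2e-07). At 12 months it had the largest genotype difference upward among the 37, 1.01 ± 0.05 (adjusted p = 1.18e-09).

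Asns, the asparagine synthetase gene and a classical ATF4 target with a composite element, was 292, 280 and 292 CPM in young WT, 243, 234 and 239 in aged WT, 324, 306 and 288 in young KO and 408, 409 and 406 in aged KO. It fell by 0.27 (adjusted p = 0.000349) in WT and rose by 0.42 (adjusted p = 6.1e-06) in KO, so that Asns and Chac1, both with the element, had opposite orders of the aged groups. Aldh18a1, of proline synthesis, fell by 0.34 (adjusted p = 2e-04) in WT and differed by 0.13 (adjusted p = 0.0657) in KO. The mitochondrial folate enzymes had smaller genotype contrasts. Mthfd2 fell in both genotypes, by 0.50 (adjusted p = 1.98e-06) in WT and 0.35 in KO (adjusted p = 5.47e-05). Shmt2 fell in WT by 0.46 (adjusted p = 0.00162), as did Pck2, the mitochondrial PEPCK, by 0.53 (adjusted p = 0.00174), and neither was called in KO (-0.05 and -0.20, adjusted p = 0.678 and 0.151). The Shmt2 interaction (0.41, adjusted p = 0.0264) was lost in 10 of 22 settings. Both folate genes are also growth-linked, and the 8 proliferation markers fell with age in both genotypes, from 1488 to 1588 CPM summed in young WT to 527 to 551 in aged WT and from 1406 to 1518 to 496 to 646 in KO; their part in the fall of these genes was not tested.

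The transporter subunits, which pair at the membrane to import large neutral amino acids, parted. Slc3a2, the heavy chain, rose in WT by 0.30 (adjusted p = 0.00178), from 189, 232 and 205 CPM to 254, 251 and 265, and differed by 0.04 (adjusted p = 0.591) in KO. Slc7a5, the light chain, was 80.3 to 91.4 CPM in both young groups and in aged WT and 113, 122 and 116 in aged KO. It rose in KO by 0.46 ± 0.06 (adjusted p = 1.2e-05) and differed by -0.02 (adjusted p = 0.778) in WT, with an interaction of 0.48 (adjusted p = 0.000236) against -0.26 for Slc3a2 (adjusted p = 0.0334, lost in 7 of 22 settings).

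**Figure D4:**
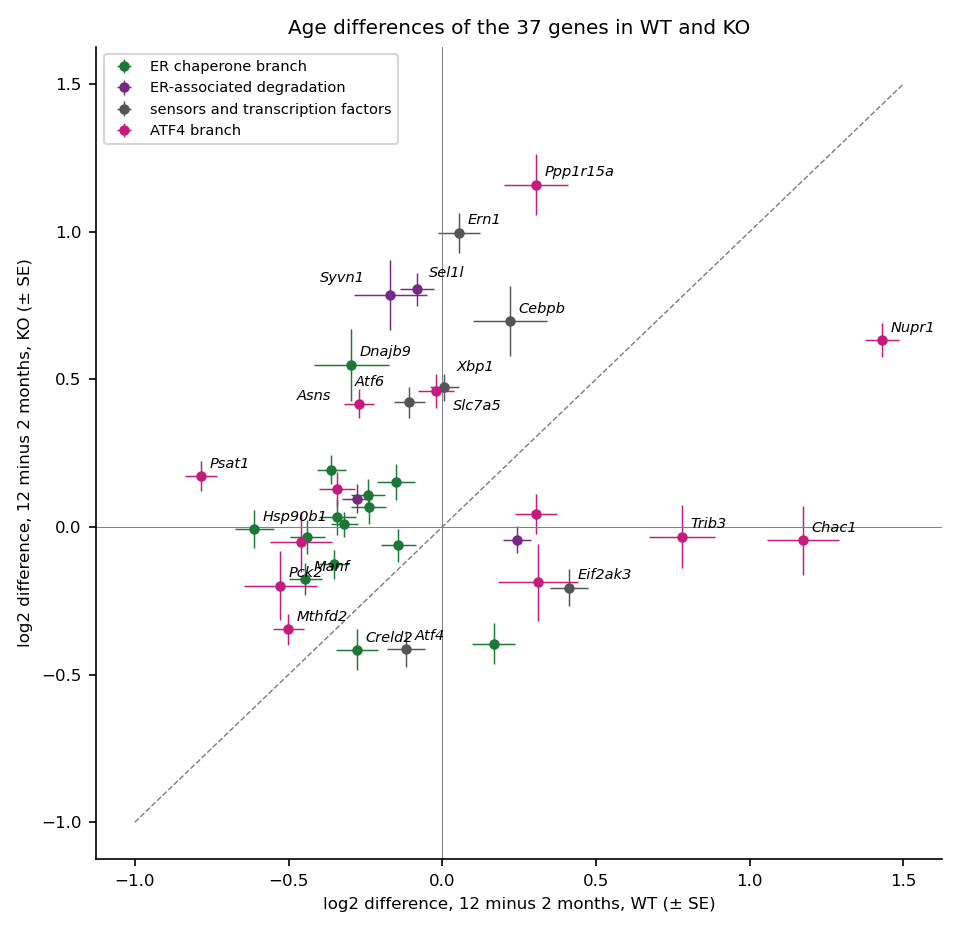
Log2 difference between 12 and 2 months in WT (horizontal axis) and KO (vertical axis) for the 37 genes, with SE bars, coloured by role; the dashed line marks equal differences. Most genes lie above the line, and Nupr1, Chac1, Trib3, Eif2ak3 and others lie below it.

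Set against each other within each library, the ER chaperone branch and the ATF4 branch kept near the same balance in young mammospheres and tilted towards ATF4 in aged WT. The balance is the mean over the 14 ER chaperone genes minus the mean over the 13 ATF4 targets, each gene relative to its young WT mean, and it does not depend on library scaling. It was 0.18, -0.15 and -0.02 in young WT, -0.39, -0.36 and -0.45 in aged WT, 0.01, 0.01 and 0.04 in young KO and -0.06, -0.13 and -0.27 in aged KO. The aged WT libraries were below all others, and the aged KO libraries overlapped those of young WT. No p is given because the members were chosen with results of these data known.

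Of the mean balance of -0.40 in aged WT, the chaperone side gave -0.29 as deposited. Unlike the balance, the mean of each branch depends on library scaling. Scaling over all 12 libraries moved young WT by -0.06 and aged WT by 0.004 on the log2 scale. That raises both branch means in aged WT relative to young WT, and they were not recomputed. As deposited, the ER chaperone mean was -0.28, -0.29 and -0.30 in the aged WT libraries and -0.04 to 0.08 in the other 9. The ATF4 mean was 0.07 to 0.15 in aged WT, within the range of -0.15 to 0.11 in young WT for 2 of the 3 libraries. This overlap was not checked after rescaling. The ATF4 mean covered opposite parts: in aged WT the 5 regulators stood at 0.75 to 0.85 and the 6 enzymes at -0.52 to -0.45. In aged KO the regulators were at 0.30, 0.38 and 0.58 and the enzymes at -0.12 to 0.03. The regulators Ddit3, Nupr1, Trib3 and Chac1 have exons of the shortest class, as does the enzyme Mthfd2. With the length trend removed, the age differences in KO were 0.16 (Ddit3), 1.002 (Nupr1), 1.24 (Ppp1r15a), 0.12 (Trib3) and 0.16 (Chac1). As deposited they were -0.19, 0.63, 1.16, -0.03 and -0.05. The branch means and the balance were not recomputed in that fit. Replicate 1 of young WT was low for the regulators, -0.24 against 0.17 and 0.06, and without it the balance was -0.31 in aged WT and -0.06 in aged KO. Replicate 3 of aged KO was high for the regulators, and without it the balance of that group was -0.09 in place of -0.15.

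**Figure D5:**
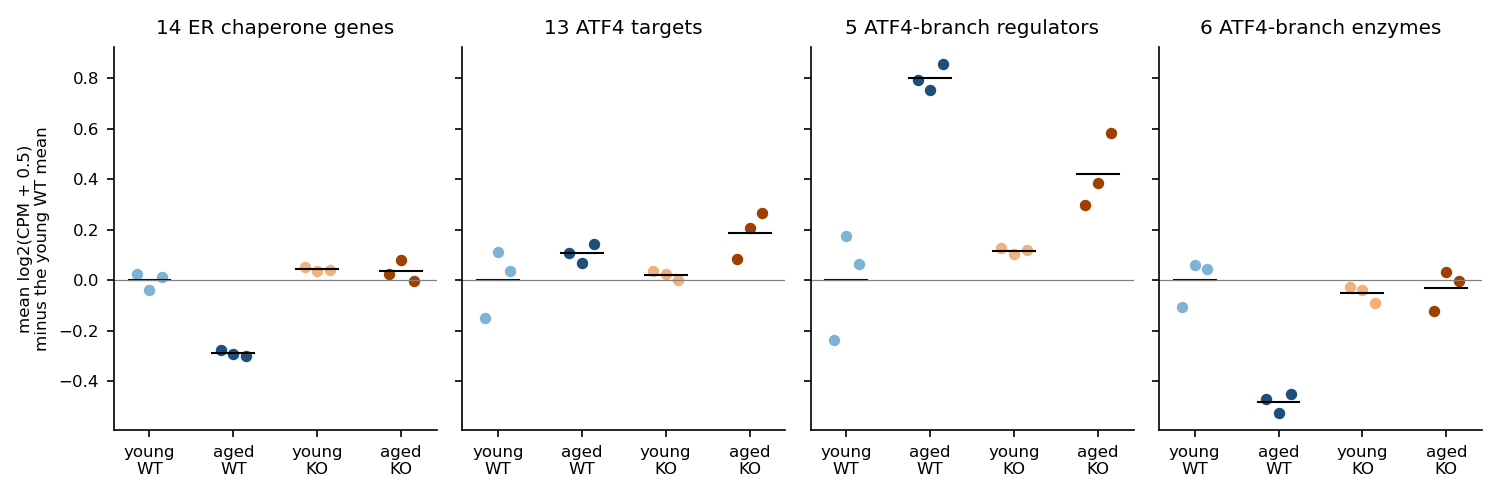
Mean log2(CPM + 0.5) relative to the young WT mean over the 14 ER chaperone genes, the 13 ATF4 targets and, of these, 5 regulators and 6 enzymes; points are libraries and lines group means (n = 3). In aged WT the chaperones lie near -0.29, the regulators near 0.80 and the enzymes near -0.48, all as deposited. The split into regulators and enzymes was made after the values were seen and leaves out Slc3a2 and Slc7a5.

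Other genes of these pathways, from lists that hold none of the 37, gave the following counts, to be read against the shares of all genes called higher and lower: 22.3% and 35.6% with age in WT, 32.9% and 34.2% with age in KO, and 31.3% and 38.9% for KO against WT at 12 months. Of 20 further ER folding genes 14 fell and 1 rose with age in WT and 9 fell and 5 rose in KO, and 13 were higher and 5 lower in KO at 12 months. Prdx4, an ER peroxidase, fell by 1.02 in WT and 0.69 in KO (adjusted p = 3e-09 and 1.32e-07). Ero1l, the oxidase that recharges the disulfide isomerases and also a hypoxia target, rose in KO from a mean of 110 to 296 CPM, a difference of 1.43 (adjusted p = 1e-10). The translocon-linked gene Ssr3 fell by 0.74 in WT and was 0.74 higher in KO at 12 months. Of 13 further degradation genes tested 6 fell and 1 rose in WT, 1 fell and 2 rose in KO, and 5 were higher and 4 lower in KO at 12 months. The counts at 12 months were near those shares of all genes, and the counts with age in KO were below them. The retrotranslocation gene Derl1 was higher in KO by 0.58 at 12 months.

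Of 13 further sensors and regulators 10 fell in WT, 4 fell and 7 rose in KO, and 7 were higher and 1 lower in KO at 12 months. Ppp1r15b, the constitutive partner of Ppp1r15a in eIF2alpha dephosphorylation, rose by 0.86 in KO (mean 175 to 317 CPM). Of 23 further ATF4 targets 10 fell and 5 rose in WT, 7 fell and 13 rose in KO, and 11 were higher and 4 lower in KO at 12 months. Their summed level was 1767 to 2196 CPM in all groups but aged KO, where it was 3382 to 3495. Atf3, a stress-induced repressor, rose by 1.97 in KO (31.0 to 124 CPM), the cystine importer Slc7a11 by 1.58 (132 to 398 CPM), the glutamine importer Slc1a5 by 1.35 and the reelin receptor gene Vldlr by 1.17. Vldlr and Cth, of cysteine synthesis, fell in WT by 0.76 and 0.78, and the secreted glycoprotein gene Stc2 rose there by 1.35.

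Of 12 cytosolic aminoacyl-tRNA synthetases, many of them ATF4 targets, 7 fell in WT, 2 fell and 2 rose in KO, and 8 were higher and 2 lower in KO at 12 months, with Eprs at 0.47 and Iars at 0.44. The 12 cytosolic heat shock genes, a separate response driven by HSF1, had 4 rises and 2 falls with age in each genotype. Of all genes 22.3% rose and 35.6% fell in WT, and 32.9% rose and 34.2% fell in KO. The heat shock count rising in KO was near its share. Their leading members Hspa1a and Hspa1b are near-identical, and reads may be split between them, so their values (in KO with age, 1.91 for Hspa1a) are uncertain. At 2 months the genotypes differed in 8 genes of these 6 lists, 2 of them higher in KO. Of all genes 1.86% were higher and 14.2% lower in KO at 2 months as deposited. This split is the one most touched by library scaling, as given above.

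Marker levels of other cells also differed between the groups, in part where few members did. At 2 months all 9 muscle, 6 mast cell and 6 endothelial markers tested were lower in KO. Of the members 1 was higher and 2 were lower there, and of all genes 1.86% and 14.2%. All 9 basal epithelial and 14 of 15 luminal markers rose with age in WT, where 8 of 9 fibroblast markers fell, and the fibroblast sum was 7162 to 7548 CPM against 9181 to 11788 in the other groups. Skeletal muscle markers summed to 213 to 238 CPM in aged WT and 332 to 375 in young KO, against 866 to 1622 in the other groups. Mast cell markers summed to 161 to 193 CPM in aged KO, 118 to 132 in young WT and 29.1 to 46.1 elsewhere, and endothelial markers to 268 to 285 CPM in aged KO against 70.2 to 127 elsewhere. Leukocyte markers were at 76.3 to 118 CPM in aged KO and at 142 to 207 elsewhere, with Cd3e at no more than 0.087 CPM in any library. Adipocyte markers summed to at most 1.47 CPM. Plasma cells, whose secretory load runs on these chaperones, left little trace: Mzb1, Tnfrsf17, Pou2af1 and Derl3 averaged under 0.5 CPM, and the sum of that list, 317 to 458 CPM, was nearly all Sdc1, which epithelia and fibroblasts also express. The part of these cell types in the member differences was not tested.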

How the data were processed

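Total RNA of 12 mammosphere libraries was sequenced after PicoPure isolation and TruSeq Stranded total RNA preparation, per the labels' protocols. Per the submitters' processing notes, the build was mm10 and the tools TopHat2 (2.1.0), Bowtie2 (2.2.4), HTSeq (0.6.1p1) and SAMtools (0.1.18). The annotation, the strand setting and the treatment of reads with several hits were not given in these sources. The deposited signal values are CPM scaled by TMM in edgeR, per the file headers; dividing by the CPM of 1 read gave whole reads within 0.1 for 100% of values, so depth is known.

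The members, role groups and lists were chosen with earlier results of these data known. The named genes were all 37 members and, from each other pathway list, at most 4 called genes with the smallest p per comparison. Genes averaging 0.5 CPM or more entered limma-trend (limma 3.58.1 in R 4.3.3) on log2(CPM + 0.5), which understates changes of low genes, with 4 group means, 8 residual degrees of freedom and Benjamini-Hochberg adjustment within each of 5 comparisons. On counts simulated for the age comparison in WT (13960 genes tested), the test recovered 10% of changes of 1.25-fold, 87.8% of 1.5-fold and 100% of 2-fold. Few genes were changed in the simulation: 158 were called, 11 of them falsely, against 8091 with age in WT in the data. The adjusted threshold was thus harder to pass there, and these recoveries do not measure the power of the real fit. Small differences that were not called are not shown to be absent. Alternatives were pseudocounts of 0.1 and 1, no filter or 2 CPM, TMM and median-of-ratios scaling over all 12 libraries, edgeR 4.0.16 and DESeq2 1.42.0 on recovered reads, a replicate block, a fit to 6 libraries, each library left out and, chosen after seeing the data, removal of a lowess trend on exon length (span 0.3). On the recovered reads edgeR's quasi-likelihood test called 7664 genes with age in WT, 9333 with age in KO, 1414 and 9772 between genotypes at 2 and 12 months, and 8120 in the interaction. The labels do not say whether replicate numbers pair the libraries, and the main fit did not pair them. GENCODE vM21 (GRCm38, the same build as mm10) gave exon lengths for 92.61% of genes and all 37 members. Overlaps of members with other genes were taken from the deposited gene starts and ends, so they are overlaps of gene spans. The total counts leave counting error small beside the spread between libraries for most members. For those with the fewest reads, such as Syvn1, it is a larger part of that spread.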

Additional observations from a re-analysis of the deposited data

Results flagged for a closer look

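Age differences that differed between WT and KO, by the interaction test in limma (age difference in KO minus that in WT, log2 scale, adjusted p under 0.05, groups of 3 libraries), were found for 33 of the 37 members, against 31.4% of all genes called above 0 and 26.2% below 0. Above 0 among the ER chaperone genes were Dnajb9 (0.84), Hsp90b1 (0.60), Hspa5 (0.55), Pdia6 (0.40), Pdia3 (0.38), Dnajc3 (0.35), Dnajb11 (0.33), Pdia4 (0.31), Canx (0.30), Manf (0.27) and Calr (0.22), and below 0 was Sdf2l1 (-0.56). In edgeR the calls of Calr, Canx and Manf were lost, and with the length trend removed those of Canx and Dnajc3.

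Of the degradation genes Syvn1 (0.95), Sel1l (0.89) and Edem1 (0.37) were above 0 and Herpud1 (-0.29) below. Of the sensors and transcription factors Ern1 (0.94), Atf6 (0.53), Cebpb (0.48) and Xbp1 (0.47) were above 0, and Eif2ak3 (-0.62) and Atf4 (-0.30) below; the call of Cebpb was lost in 7 of 22 settings.

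Of the ATF4 targets Psat1 (0.96), Ppp1r15a (0.85), Asns (0.69), Slc7a5 (0.48), Aldh18a1 (0.47) and Shmt2 (0.41) were above 0, and Chac1 (-1.22), Trib3 (-0.81), Nupr1 (-0.80), Ddit3 (-0.50) and Slc3a2 (-0.26) below. Of these calls, that of Shmt2 was lost in 10 of 22 settings, that of Ddit3 in 9 and that of Slc3a2 in 7. Creld2, Hyou1, Mthfd2 and Pck2 did not pass the test.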

How the results depend on the processing

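Of 185 member differences (37 members in 5 comparisons), 115 were called, and 93 of these kept their call and direction in every alternative setting run (23, or 22 for the interaction, which a fit to 6 libraries cannot give), while 22 lost it in at least 1. A call was gained with the same sign by 25 uncalled differences. Herpud1 with age in KO and Creld2 between genotypes at 12 months gained a call with the sign turned, as given below. The genotype comparison at 2 months was the least stable. Its count of members higher in KO, 1 as reported, was 0 with a pseudocount of 0.1, no filter, the replicate block or only 6 libraries, 5 with TMM over all 12 libraries, 6 with median-of-ratios scaling, 7 with edgeR, 8 with DESeq2 and 6 with the length trend removed. Its count of lower members, 2 as reported, was 0 with both rescalings, edgeR, DESeq2, only 6 libraries and the length trend removed. Leaving out each library gave 0 to 1 higher and 0 to 3 lower. With the length trend removed, 4 members fell with age in KO in place of 7, Calr with age in KO turned to 0.014 (adjusted p = 0.83), Herpud1 with age in KO to 0.12 (adjusted p = 0.0344) and Creld2 between genotypes at 12 months to 0.18 (adjusted p = 0.0213). The balance of the branches without Shmt2 and Mthfd2, which also follow growth, was -0.50 in aged WT and -0.0013 in young KO; leaving out each library gave -0.47 to -0.31 and -0.054 to 0.11. The cause of these shifts was not tested. The labels do not say whether the numbers pair the libraries, and the values do not decide it. Of 18 same-numbered pairs 8 correlated above 0.1 (range -0.16 to 0.59), and 6 of 12 libraries correlated best with their own number. Correlations were 0.09 to 0.59 for replicate 1, -0.16 to 0.08 for replicate 2 and 0.03 to 0.37 for replicate 3. With the replicate block 8453 genes were called with age in WT, against 8091 without it. Beyond the count of 0 above, the replicate block moved no count of members by over 1.5 times.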
